A study of Homo sapiens with 6 samples.

Results

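Front-loaded coding sequences are those on which ribosomes were counted mainly towards the start. Each coding sequence (CDS) was split at its middle into a 5′ part and a 3′ part. The members were chosen by the log2 ratio of mean ribosome occupancy in the 5′ part to that in the 3′ part, and are the 200 transcripts with the highest ratio, out of 7199 transcripts with at least 200 codons and at least 100 codons above 0, and out of 9570 transcripts in all. The first and last 15 codons were dropped, and values were capped at the 99th percentile of each transcript. Because these values chose the members, the ratios are given as a description with no test. The data come from HEK293, a human embryonic kidney cell line, which the labels describe as treated with control siRNA, so that all samples share 1 condition. From the same lysates, 3 libraries of ribosome-protected fragments (RPFs) and 3 libraries of total RNA were made. Cells were treated with cycloheximide, which arrests elongating ribosomes, at 100 µg/ml for 3 min before lysis. All samples received it, so its part in the occupancy was not tested. There was no untreated or knockdown group, and no sample of another cell type.

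Ribosome profiling sequences the short pieces of mRNA that ribosomes shield from RNase, and the place of each piece gives the codon that a ribosome was reading. On an mRNA that is read from start to stop, RPFs lie along the whole CDS. They can become fewer downstream where ribosomes leave or change frame, where the assigned transcript differs from the one in the cell, where elongation is faster, or where fragments are harder to sequence or align, and RPF density alone does not separate these. Occupancy is here the RPF count at a codon, in frame only, normalised for library size and divided by the abundance of the transcript in total RNA.

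PEG10, a gene of retrotransposon origin, had the highest ratio. It is known for a programmed −1 frameshift, in which a share of ribosomes slips back by 1 base and reads on in another frame. The hg19 (GRCh37) sequence around its only GGGAAAC heptamer downstream of the AUG is shown because in-frame RPFs became far fewer close to it. The heptamer, in capitals, starts at base 1182 from the AUG, in codon 394, and the window lies on the plus strand at chr7:94293811-94293840 within the coding exon.

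PEG10: tcttcgccggcGGGAAACtccccggccccg

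The annotated first reading frame of PEG10 ends with its stop at codon 402. Codons 16 to 401 held 31091 reads in frame and the codons from 403 to 770 held 462. Mean occupancy was 0.158 before and 0.00239 after, and the fold was 65.6, 53.4 and 87.1 in the 3 libraries. Close to the site, 1116 reads lay in codons 381 to 390, 92 in codons 391 to 400, 0 in codons 401 to 410 and 4 in codons 411 to 420. The single step that fits the values best lay at codon 385, upstream of the heptamer. The table holds 785 codons for PEG10 and the annotated fusion holds 784, so codons were counted from the AUG and the sequence was not matched by length. Only in-frame values are listed, and the sources used here do not say how the frame was set after the slip.

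For the other members with the highest ratios that could be matched to the reference, the 30 bases around the fall are shown. Each window holds 5 codons before the fall in lower case and 5 codons after it in capitals, and is printed 5′ to 3′ on the strand of the gene. The fall is the single step that left the least squared error in the capped codon values. It need not be the place where most reads end.

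RPS10-NUDT3: cggagtgctgtgccaCCTGGTGCCGACAAG

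SF3A2: tggaaccgggagaccAAGCAGTTCTTCCTC

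WDR27: ttgagcctggatgatCATGTTGTTGCCGTG

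ARMC2: tcctcaagaacatcaGAAAATAGACCTCCT

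HES1: aaggcggacattctgGAAATGACAGTGAAG

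INO80E: tcggactcagatgccACTGCATCATCAGAT

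CACNA2D3: agaaatgctatggtgAATCGAAAGACGGGG

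RBM4B: gccagcaagaataagAGCAAAGCTTCAACC

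No motif was searched for in these windows, which are shown for their position and their counts. Reads fell from 1938 in the 5 codons before to 614 in the 5 codons after in RPS10-NUDT3 (codons 129 to 138, chr6:34386188-34389522, minus strand). In SF3A2 they fell from 179 to 5 (codons 199 to 208, chr19:2247641-2247774, plus strand). In HES1 the counts were 239 and 38 (codons 77 to 86, chr3:193854774-193854803, plus strand), and in INO80E 243 and 38 (codons 68 to 77, chr16:30008178-30012104, plus strand). RBM4B held 545 and 39 reads (codons 69 to 78, chr11:66444317-66444346, minus strand). WDR27 held 9 and 1 (chr6:170070701-170070730, minus strand), ARMC2 10 and 3 (chr6:109175648-109175677, plus strand) and CACNA2D3 2 and 0 (chr3:54913048-54913077, plus strand), which is too few to place the fall to a codon. The windows of RPS10-NUDT3, SF3A2 and INO80E span an exon junction, and their coordinates include the intron. The fall of RPS10-NUDT3 lay upstream of codon 152, where the CDS of RPS10 ends.

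CCN codons, the 4 codons of proline, were over 5 percentage points more frequent in the 3′ part than in the 5′ part in 69 of 178 members (38.8%) and in 6.07% of other transcripts. The 10-codon window richest in CCN is shown for 8 members whose 3′ part held over 20% of such codons. CCN codons are in capitals.

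SF3A2: CCCCCGggaCCACCCcagctaCCCCCGCCA

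HES1: caggcgCCGCCACCGCCCCCACCGggaCCC

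INO80E: CCCctcCCACCCCCTaagatgCCCCCCCCC

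SNRPB: CCACCTggccgtgggggtCCTCCCCCACCT

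CCNK: CCGCCCCCGCCACCTgtgCCTCCTCCCCCA

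SF3B4: CCCCCAgccatgCCCCCACCACCTatgCCT

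WBP2: CCTCCTggctacCCCtatCCACCGCCCCCA

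DAZAP1: ggaagaggagccCCCCCGCCACCCCCACCG

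The windows lie in 3′ parts that the rule chose for low occupancy, so their reads are given as a description only, and were not compared with other windows. The 10 codons held 0 reads in HES1 (codons 164 to 173, chr3:193855669-193855698) and 0 in CCNK (codons 482 to 491, chr14:99976820-99976849). They held 1 read in SF3A2 (chr19:2247970-2247999), 2 in DAZAP1 (chr19:1430244-1430273), 3 in WBP2 (chr17:73843881-73843910) and 4 in SF3B4 (chr1:149897840-149897869). INO80E had 11 reads (chr16:30016632-30016661) and SNRPB 14 (chr20:2443760-2443789). WBP2, SNRPB and SF3B4 lie on the minus strand and the others on the plus strand. All of these windows lie in coding exons.

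Across the 200 members the log2 ratio ran from 1.37 to 5.99 with a median of 1.71, while the median of all 7199 transcripts was 0.07. Mean occupancy in the 5′ part was over 4 times that in the 3′ part in 55 members and over 8 times in 12. Members just inside the threshold included CHMP1A and PEX16, each at 1.37, and those just outside were RPUSD1 and SPATA2 at 1.36 and PLEKHH3 at 1.35. The ratio therefore had no gap at the threshold. With the CDS split into 10 equal bins, the median share of occupancy in members was 17.4% in bin 1, 17.2% in bin 2, 9.98% in bin 5, 4.65% in bin 6 and 3.86% in bin 10. Other transcripts were close to even.

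**Figure D1:**
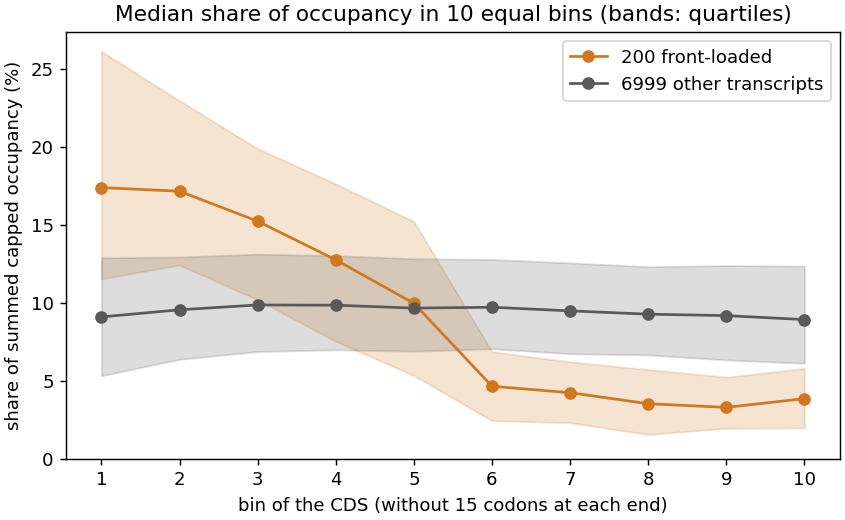
Median share of the summed capped occupancy (%, vertical axis) in each of 10 equal bins of the CDS (horizontal axis) for the 200 front-loaded and 6999 other transcripts, with bands from the lower to the upper quartile. The members start at 17.4%, pass 9.98% in bin 5 and drop to 4.65% in bin 6, which the choice of members fixes in large measure.

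The fall lay at a median of 36.6% of the CDS, at or before the middle in 170 of 200 members (85%, against 49.9% of the 6558 others with a fall) and between 40% and 60% in 74 (37%, against 14.8%). The median of the others was 50.2%. The position comes from the values that chose the members, so it is a description. The share of codons above 0 went from a median of 56.2% in the 5′ part to 32.9% in the 3′ part.

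The deposited values combine the replicates, but each value was a sum of whole reads, so that reads could be recovered for each of 3 libraries. Within each transcript these were named a, b and c by the worth of a read, and they are not tied to replicate numbers. A letter may therefore stand for different libraries in different transcripts. All 200 members were recovered at every codon. The ratio was above 0 in all 3 libraries in 199 members. In FPGT-TNNI3K it was above 0 in 2 libraries, and library c had reads in the 5′ part and 0 in the 3′ part. The background was 47.5% of 7054 transcripts, with FPGT-TNNI3K counted as above 0, and nothing is read from the members' count because the rule used these reads. In 151 members every library reached the threshold, and in 49 at least 1 library was below it. The median SD between libraries was 0.16 in members and 0.10 in others (n = 3 libraries). Members had fewer reads, with a median of 1395 against 2271, and 41 of them (20.5%) had 500 or fewer, against 11.6% of others. The 12 members with an SD over 0.5 all had 600 or fewer reads, among them WDR27, ARMC2, SLC39A3 and THAP7.

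**Figure D2:**
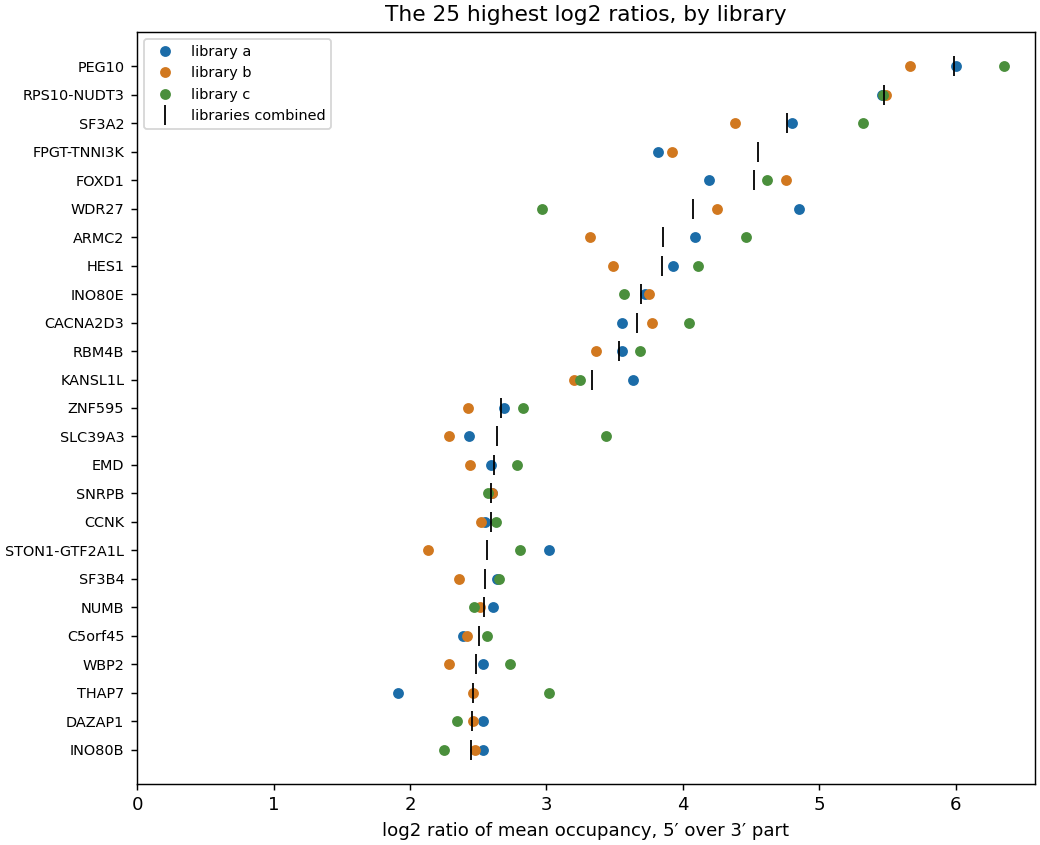
Log2 ratio of mean occupancy in the 5′ over the 3′ part (horizontal axis) of the 25 members with the highest ratios, with a point for each library and a bar for the libraries combined. Library letters were set within each transcript. RPS10-NUDT3 and SNRPB have points that nearly coincide, WDR27 and SLC39A3 are spread, and library c is not drawn for FPGT-TNNI3K, where it had 0 reads in the 3′ part.

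The named members are described by their known roles, a grouping made after their values were seen and with no count over all transcripts. SF3A2, a subunit of the U2 snRNP that recognises the branch point, had log2 ratios of 4.80, 4.38 and 5.32 in libraries a, b and c. It held 8198 reads in the 5′ part and 212 in the 3′ part, so that 97.5% of reads lay in the 5′ part (95% Wilson interval 97.1 to 97.8, counting error only). SNRPB, which encodes the Sm proteins B and B′ of the spliceosomal snRNPs, had 2.60, 2.60 and 2.57, with 19550 and 3035 reads. SF3B4, another U2 snRNP subunit, had 2.64, 2.36 and 2.66. DAZAP1, an RNA-binding regulator of splicing, had 2.53, 2.46 and 2.34, and RBM4B, an RNA-binding protein of the RBM4 family, 3.55, 3.36 and 3.69. The lowest library value among these 5 genes was 2.34. They were named for their high ratios, which come from these same reads, so nothing is read from it. Further down, SNRNP70, a U1 snRNP protein, had 1.45, 1.41 and 1.67.

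HES1, a repressor induced by Notch signalling, had 3.93, 3.49 and 4.11, with 2101 reads in the 5′ part and 143 in the 3′ part. Its relative HEY1 had 1.95, 1.58 and 2.19. FOXD1, a forkhead factor, had 4.19, 4.76 and 4.62, and only 18 reads in the 3′ part against 666 in the 5′ part. CCNK, the cyclin that activates CDK12 and CDK13, had 2.55, 2.52 and 2.63. INO80E and INO80B, subunits of the INO80 chromatin remodelling complex, had 3.72, 3.75 and 3.57 and 2.54, 2.47 and 2.25. THAP7, a transcriptional repressor, varied more between libraries with 1.91, 2.46 and 3.02 on 405 and 71 reads. The lowest library of INO80E lay above the highest of INO80B, and the lowest of HES1 above the highest of HEY1.

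Other named members, of mixed roles, included WBP2, a partner of WW-domain proteins (2.53, 2.28 and 2.73), and NUMB, an endocytic adaptor that antagonises Notch (2.61, 2.51 and 2.47). EMD, the inner nuclear membrane protein emerin, had 2.59, 2.44 and 2.78. SLC39A3, a zinc transporter, had 2.43, 2.28 and 3.44, so that library c stood above the others. CACNA2D3, an auxiliary subunit of calcium channels, had 3.55, 3.77 and 4.04, but on 175 and 15 reads. ARMC2 (4.09, 3.32 and 4.46), WDR27 (4.85, 4.25 and 2.97) and KANSL1L (3.63, 3.20 and 3.25) rested on 13, 14 and 29 reads in the 3′ part. C5orf45 had 2.39, 2.42 and 2.56 on 258 and 45 reads.

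**Figure D3:**
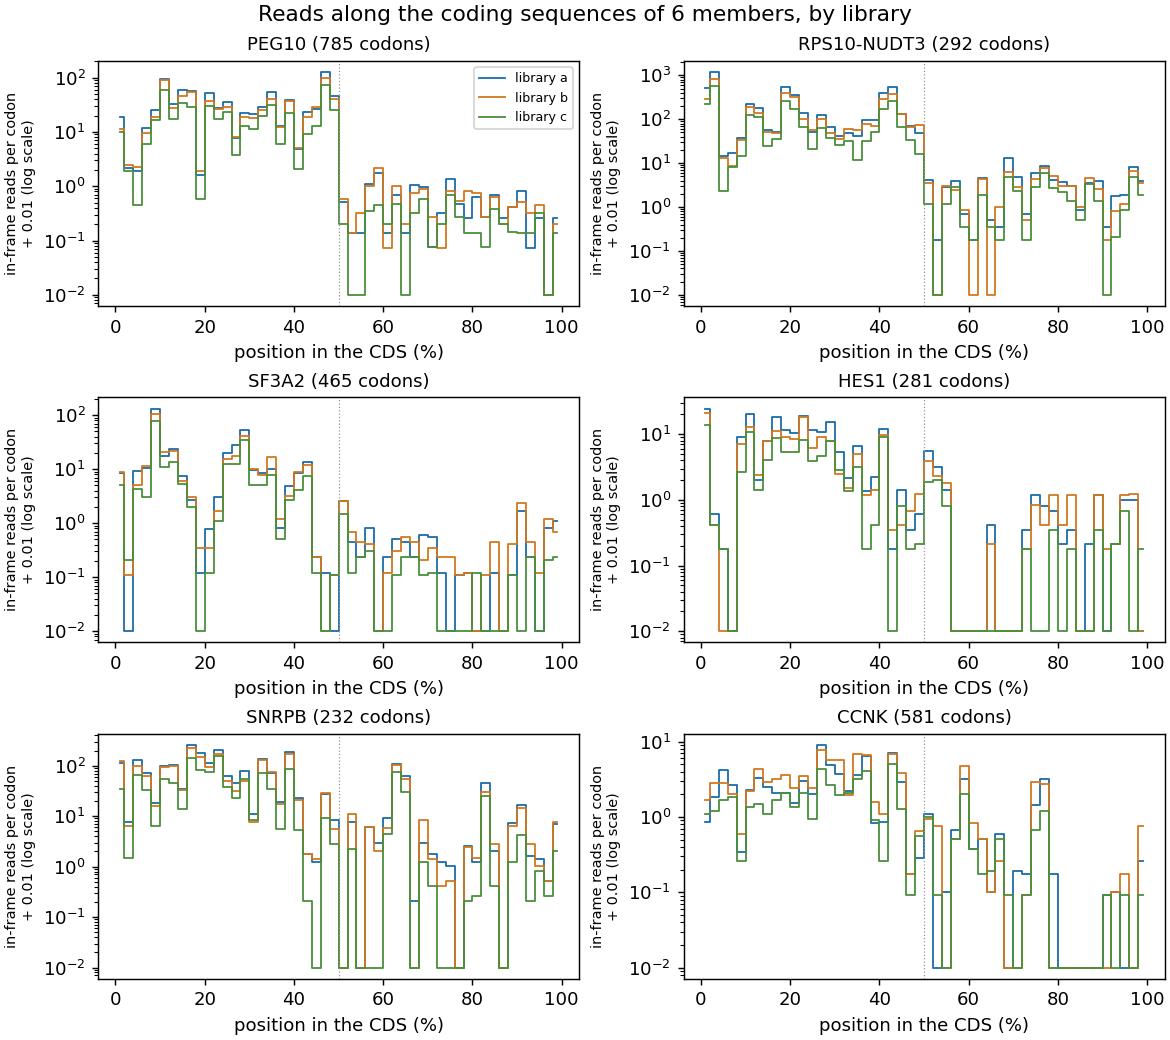
In-frame reads per codon with 0.01 added (vertical axis, log scale) along the CDS (horizontal axis, % of its length, 50 bins) for 6 members, with a line for each library and a dotted line at the middle. PEG10 and RPS10-NUDT3 drop sharply at the middle in all libraries, SF3A2 and SNRPB drop shortly before it, and HES1 falls stepwise. SNRPB rises again in the 3′ part, to 110, 104 and 75 reads per codon at 63% of the CDS in libraries a, b and c. Library letters were set within each transcript.

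Readthrough genes, whose transcripts join 2 neighbouring genes, were frequent: 5 of the 16 with enough depth were members (31.25%), against 2.78% of all transcripts. This group was named after its values were seen. RPS10-NUDT3 joins RPS10, a protein of the small ribosomal subunit, to NUDT3, a phosphohydrolase. It had 5.46, 5.49 and 5.47. The CDS of RPS10 ends at codon 152 of it, and 43893 reads lay up to that codon while 887 lay after it, with mean occupancies of 0.128 and 0.00285. The fall of RPS10-NUDT3 lay at codon 134, inside the RPS10 part, and reads went on after it. STON1-GTF2A1L, which joins an endocytic adaptor to a germ-cell relative of TFIIA, held 287 reads in the STON1 part, up to codon 711, and 6 after it. PPAN-P2RY11, of 521 codons, held 5315 reads in the part of PPAN, a ribosome biogenesis factor, up to codon 447. It held 0 in the rest, the part of the purinergic receptor P2RY11. Its log2 ratio was 1.48, on 3983 and 1331 reads in its 5′ and 3′ parts, and its fall lay at codon 231, inside the PPAN part. FPGT-TNNI3K had a log2 ratio of 4.55, on 418 and 16 reads in its 5′ and 3′ parts. Library c had 0 reads in the 3′ part, so that the log2 ratio of that library had no value. CHURC1-FNTB had a log2 ratio of 2.03, on 3660 and 811 reads. Of all 30-base words of the CDS, 100% of those in the 5′ part of RPS10-NUDT3 and of STON1-GTF2A1L also occur in another gene, and 95.1% and 96.7% in the 3′ part. RPFs of the single genes cannot be told apart from those of the joined transcript. Of the other 11, HSPE1-MOB4 had the highest ratio at 1.14 and NME1-NME2 the lowest at −1.28.

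Members with the most reads included HNRNPM, an hnRNP protein of pre-mRNA (1.84, 1.69 and 2.01, 54467 and 14569 reads), and PABPC1, the cytoplasmic poly(A)-binding protein (1.85, 1.80 and 1.89, 52683 and 14191 reads). WDR33, a subunit of the cleavage and polyadenylation factor, had 2.09, 1.93 and 2.22, and CNOT3, a subunit of the Ccr4-Not complex, had 1.32, 1.35 and 1.51, of which libraries a and b were below the threshold. Of 24 regulators of the 5′ and 3′ ends of mRNAs, PABPC1 and CNOT3 were members. RNA-binding proteins of the RBM, SRSF and HNRNP families had 4 members of 54 (7.41%): RBM4B, HNRNPM, RBM4 and SRSF12. C2H2 zinc finger genes had 10 of 344 (2.91%), a list made by symbol that counts ZFP36L2, a CCCH protein, among its members. Solute carriers had 5 of 139, TMEM proteins 3 of 70, and ubiquitin genes of the USP, TRIM and RNF families 1 of 105. Kinesins, myosins and dyneins had 0 of 44, a list matched by symbol prefixes that leaves out MYH14, a non-muscle myosin and a member. DEAD and DEAH box helicases had 0 of 36 and centrosome and coiled-coil genes 0 of 68. Ribosomal proteins had 1 of 24, which was RPS10-NUDT3, mitochondrial ribosomal proteins 1 of 32, MRPL22, and chromatin modifiers, a list of symbol prefixes that leaves out members such as DOT1L, INO80E, INO80B and MBD3, 1 of 59, the demethylase KDM4D. Extracellular matrix and cadherin genes had 0 of 31, genes with KIAA, FAM or LOC symbols 3 of 108 (FAM58A, KIAA1958 and FAM149B1), selenoproteins 0 of 5, genes with a known frameshift 1 of 2, PEG10, and genes with intronic polyadenylation 1 of 7, WDR33. These shares are to be read against 2.78% of all transcripts.

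The base composition of the parts moved with the ratio. Of the 178 members matched to a reference CDS of the same length, GC content was higher in the 3′ part in 150 (84.3%), against 47.6% of other transcripts and 10 of 193 of the 200 transcripts with the lowest ratios. The median difference was 6.65 percentage points in members, −0.17 in others and −13.1 in the lowest. In CCNK, GC went from 44.7% to 67.4%, in HES1 from 54.1% to 72.3%, and in HNRNPM from 46.2% to 65.3%. RPS10-NUDT3 went the other way, from 56.5% to 49.4%, as did BTN3A1, a butyrophilin, from 55.4% to 48.2%. Members were 0.221% of the transcripts whose 3′ part was lower by over 10 points and 34.8% (48 of 138) of those where it was higher by over 10. Over 6904 transcripts the GC difference and the log2 ratio had a Pearson coefficient of 0.627 and a Spearman coefficient of 0.575, while within the 178 members the Pearson coefficient was 0.07. Transcripts share libraries, and the part of base composition in the ratio was not tested.

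**Figure D4:**
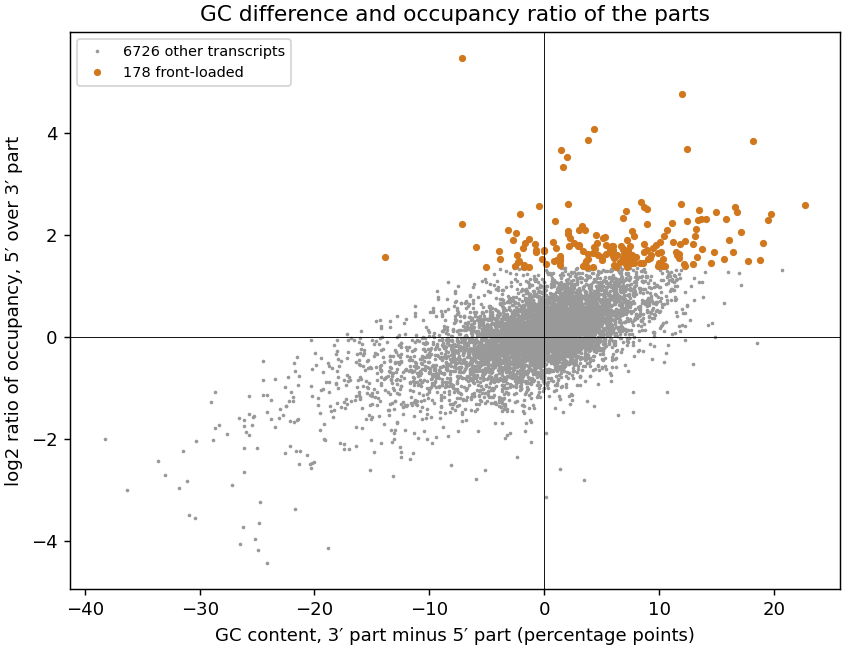
Log2 ratio of occupancy in the 5′ over the 3′ part (vertical axis) against GC content of the 3′ minus the 5′ part (horizontal axis, percentage points), with a point for each of 178 front-loaded and 6726 other transcripts. Members lie mainly to the right of 0, with RPS10-NUDT3 at 5.47 on the left, and the front-loaded points start at a log2 ratio of 1.37 by the rule.

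CCN codons had a median of 5.19% in the 5′ part and 8.92% in the 3′ part of members, and 5.18% and 5.12% in others. The 3′ part held over 20 points more of them in 12 members and in 1 of 6727 others. These 12 were SF3B4 (5.08% and 40.1%), SF3A2 (8.29% and 41.9%), CCNK (6.18% and 37.5%), WASF1, WASF2 and WASF3, WBP2, VPS37B, DAZAP1, NABP2, SNRPB and CBLL1. With the CCN codons of the 3′ part left out, the median log2 ratio was 1.68 in the 136 members with at least 10 such codons and 0.11 in 4354 others. The rule used these occupancy values, so nothing is read from it, and the part of CCN codons in the ratio was not tested. Lysine codons, AAA and AAG, went the other way, from 6.83% to 3.89% in members, and from 6.06% to 6.05% in others.

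Transcript models differed between the parts too. Of the genes with further coding transcripts, 167 were members. The share of a part that lay in the CDS of those transcripts, averaged over them, had a median of 75.3% for the 5′ part and 57.6% for the 3′ part in members, against 67.6% and 60.6% in others. The cover was lower by over 20 points in the 3′ part in 68 of 167 members and in 25.9% of others. INO80B went from 96.9% to 8.52%, SF3B4 from 85.8% to 10.3% and CCNK from 70.5% to 9.86%. In 21 of 178 members (11.8%) at least 50% of the 30-base words of the 5′ part occur in another gene, against 7.77% of others. Of the 178, 108 (60.7%) had a 3′ part with GC over 5 points higher, against 738 of 6727 others. Of the 70 members without such a GC difference, 29 had the lower cover, against 1364 of 5989 others. A further 7 of them had such shared sequence in a part, against 431 of those others. None of these features was found in 34 members (19.1%) and in 62.3% of others. The part of transcript models in the ratio was not tested.

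Several paralogues were members together, which was seen after the values were known. The 3 WASF genes, which activate the Arp2/3 complex in actin assembly, had log2 ratios of 1.43 for WASF1, 1.98 for WASF2 and 2.40 for WASF3. RBM4 had 1.62 beside 3.53 in RBM4B, and BCL7B and BCL7C, subunits of the SWI/SNF complexes, had 2.28 and 1.63, while BCL7A had 1.26 and was no member. In WASF1, BCL7B and BCL7C no 30-base word was shared with another gene in either part, whereas in RBM4 all were shared. In WASF2 52.2% and 39.4% of the words were shared in the 5′ and 3′ parts, and in RBM4B 54.1% and 9.01%. Other paralogues among the members were NBPF15 (100% and 91.6%), NBPF3 (30.3% and 50.0%), POM121 (79.5% and 80.5%), BTN3A1 (59.0% and 2.15%) and BTN3A3 (42.3% and 29.7%). Little was shared in TMEM120A (0% and 0.68%) and TMEM120B (0% and 0.69%), both members, and in WASF3 (1.47% and 0%). In INO80B, named above, all words were shared in both parts, and in INO80E none. RPFs from shared words cannot be assigned to 1 gene.

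The dropped ends, which the rule did not use, leaned the same way. Occupancy was higher in the first 15 codons than in the last 15 in 119 of 200 members (59.5%) and in 40.3% of others. In-frame occupancy of the 5′UTR was a median of 5.04% of that of the CDS in members and 2.94% in others. It was over 10% of that of the CDS in 75 of 200 members (37.5%) and in 27.9% of others. The highest value was 20197% in members and 742% in others, so values above that of the CDS were found in both. Members with such values included GORASP2, a Golgi stacking protein (181%, 2303 reads). POM121, a nuclear pore protein whose CDS words were mostly shared with another gene, was a further example (223%, 1620 reads). In the 3′UTR no in-frame value was found in 105 members (52.5%) and in 42.9% of others. These values come from the same RPF libraries as the ratios.

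Translational efficiency relates the RPFs of a gene to its total RNA, with a value for each replicate, and was available for 143 of the 200 members. It comes from the same RPF libraries but is given per gene, and the sources used here do not state which reads of a gene it counts. By limma with Benjamini-Hochberg adjustment over 8121 genes, 52 members were higher than the median of all genes (36.4%, background 44.7%) and 76 were lower (53.1%, background 44.6%), while 15 did not pass. The median of members was 0.303, 0.318 and 0.298 in replicates 1, 2 and 3, and that of all genes 0.382, 0.380 and 0.388. Other transcripts that met the depth filter had medians of 0.358, 0.354 and 0.364, also under those of all genes. The count of lower members exceeded its background and that of higher members was under it, with no test of the difference. Both backgrounds are over all 8121 genes and not over those with that depth.

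**Figure D5:**
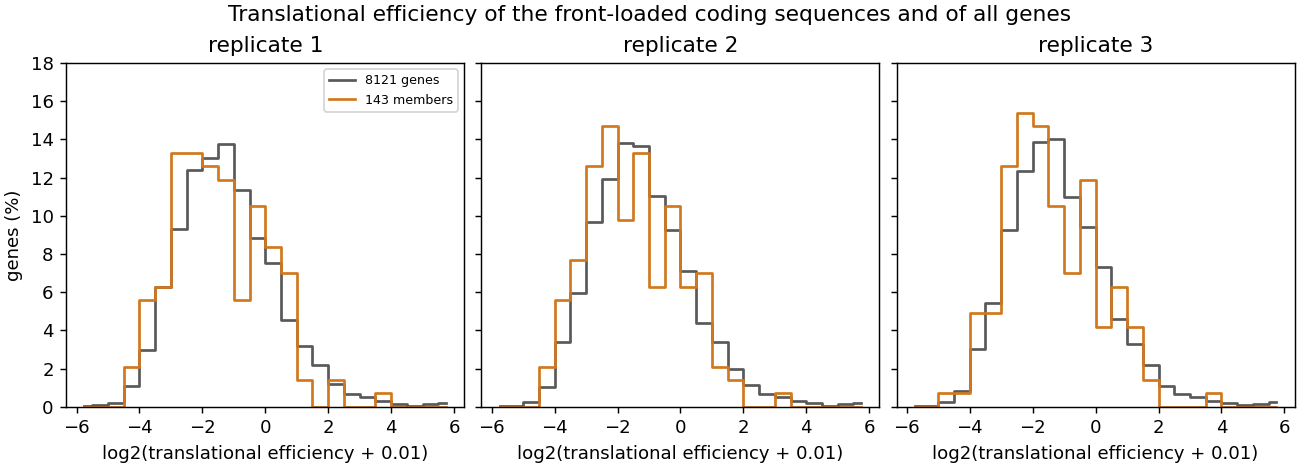
Share of genes (%, vertical axis) by log2 of translational efficiency with 0.01 added (horizontal axis) for 143 front-loaded members and all 8121 genes, in each of 3 replicates. Values beyond 6 on either side are drawn in the outermost bin, and the members lie slightly to the left, with medians near 0.303 against 0.382 in replicate 1.

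The highest member was ZNF595, a zinc finger gene, at 12.1, 8.57 and 13.8. SF3B4 had 4.03, 3.82 and 3.74, a log2 difference from the median of 3.30 (SE 0.0513, limma adjusted p = 1.3e-06). MRPL22, a mitochondrial ribosomal protein, had 2.71, 2.87 and 3.12, PBDC1 2.14, 2.04 and 2.28, and ZNF718 4.17, 1.98 and 1.60, with replicate 1 apart. SF3A2 had 1.99, 1.91 and 2.05 and PABPC1 1.94, 1.69 and 1.91. PEG10 had 0.789, 0.722 and 0.731, a log2 difference of 0.94 (SE 0.0535, limma adjusted p = 3.56e-05). All of these were above the median in each replicate.

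At the lower end stood FAM58A, also known as cyclin Q, at 0.0354, 0.0393 and 0.0317, a log2 difference of −3.12 (SE 0.0652, limma adjusted p = 1.84e-06). FOXM1, a forkhead factor of the cell cycle, had 0.0479, 0.0493 and 0.0499. MBD3, a subunit of the NuRD complex, had 0.0567, 0.0618 and 0.0554, NCAPH2, a subunit of condensin II, 0.0597, 0.0582 and 0.0574, and SLC25A25, a mitochondrial carrier, 0.0609, 0.0581 and 0.0683. The replicates of these genes were close and lay far under the median. WDR33 (0.431, 0.391 and 0.375, limma adjusted p = 0.419) and SLC39A3 (0.302, 0.355 and 0.463, limma adjusted p = 0.664) did not pass. The genes at either end were picked as the highest and lowest members, so their spread is a description. Mean efficiency over replicates ran from 0.0354 to 11.5 in members and from 0.0119 to 530 in the other transcripts with enough depth.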

How the data were processed

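RPFs and total RNA of HEK293 cells were sequenced in 3 libraries each. The authors removed adapters with Cutadapt and duplicates with cd-hit-dup, aligned RPFs of 28 to 30 nt to the hg19 transcriptome with an offset of 13 nt, and counted total RNA with HTseq-count. The submitters' processing notes name cutadapt 1.16, Bowtie 1.1.2, TopHat2 2.1.1 and HTSeq 0.9.1, while the methods name Hisat2. Deposited were a table of translational efficiency, a linear ratio per gene and replicate whose formula the sources used here do not state, and a table of in-frame occupancy per codon, with replicates combined, in RPF counts normalised for library size over TPM. The authors' depth per library is not in these tables.

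For 31 transcripts a broken list was rejoined and the codon at the break set to missing. Occupancy values were decomposed into whole reads of 3 libraries, which succeeded in 7174 of 7199 transcripts with enough depth. Members were matched by symbol and CDS length to GENCODE 44 on GRCh37 (178 of 200). Words of 30 bases were compared with transcripts of other genes on the same strand. The efficiency of every gene, as log2 after adding 0.01, was compared with the overall median by a one-sample fit in limma 3.58.1 (R 4.3.3), calling at an FDR of 0.05. Scripts were tested on simulated data. The p-values measure the spread between 3 samples that the labels number but do not describe as separate cultures. RPF and total RNA libraries with the same number come from 1 lysate, and the deposited ratio is taken within each pair. Replicates correlated at 0.987, 0.988 and 0.990 over genes.

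Named genes were the 25 members with the highest ratio, the 5 with the most reads, the 5 highest and the 5 lowest in efficiency, and the members of the mRNA-regulator lists. Others were named after their values were seen. The members and lists were chosen with earlier results of these data known.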

Additional observations from a re-analysis of the deposited data

How the results depend on the processing

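The choice of members depended on the measure. Of the 200, 106 stayed among the highest 200 when the share of codons above 0 replaced the mean, and 96 when 200 or more codons above 0 were required, which is the number of members with that depth. The median log2 ratio was 1.49 with a cap at the 95th percentile, 2.06 when only the outer parts of the CDS, at its start and its end, were compared and the middle left out and 0.74 for the share of codons above 0. The median fall lay at 41.5% of the CDS on the log2 scale and at 37.7% with 0 codons dropped. The other alternatives kept between 138 and 181 members. Libraries were also left out in turn, by the letter set within each transcript. The median of the 40 named members then ran from 2.50 to 2.56, and 32 of the 200 fell below the threshold. For translational efficiency, leaving out a replicate gave 50 to 51 higher and 72 to 74 lower members. With each replicate set against its own median in place of the overall median, the counts of members were 52 and 76, as in the main fit. The pairing of RPF and total RNA lies inside the deposited ratio, so no setting varied it. Reads limit the members with 500 or fewer.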
